A study of Mus musculus with 2 samples.

Results

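The 9 genes described here carry interferon signals: the ligand Ifng, the receptor chains Ifngr1, Ifngr2, Ifnar1 and Ifnar2, and the transcription factors Stat2, Irf1, Irf7 and Irf9. They were taken by symbol from the 24984 genes of the count matrices, and all 9 were found. Interferon gamma is made by activated T cells and natural killer cells and binds the Ifngr1 and Ifngr2 chains, after which Irf1 is induced. Type I interferons bind Ifnar1 and Ifnar2, after which STAT2 and IRF9 act in the complex ISGF3, which turns on antiviral genes, Irf7 among them. In muscle both kinds of interferon act on macrophages, endothelial cells and fibro-adipogenic progenitors (FAPs, the main stromal cells) during injury and dystrophy.

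Muscle of the hind limbs of dystrophin-deficient mdx mice was dissociated and live mononuclear cells were sorted with propidium iodide, after lysis of red blood cells, for droplet-based single-cell RNA sequencing on the 10x Chromium. The Ctrl library came from Pax7CreERT2/R26YFP; Yy1+/+; mdx mice and the dKO library from Pax7CreERT2/R26YFP; Yy1f/f; mdx mice, so both carried the Cre driver, the YFP reporter and the dystrophin mutation. Both groups received tamoxifen as young adults, which activates a Cre driven from the Pax7 locus, and muscle was taken a month later. In the Yy1f/f mice of the dKO group this deletes the transcription factor Yy1 in muscle stem cells (MuSCs). The cells of several mice were pooled within each group, so each condition is 1 library and no test between conditions was possible.

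The Ctrl library held 4527 cells with 45556596 UMIs (unique molecular identifiers, 1 for each captured RNA molecule) and the dKO library 3483 cells with 33815155 UMIs, and the median kept cell had 7880 and 7806 UMIs. After cells with under 500 genes and likely doublets were removed, 4010 and 3079 cells were clustered into 22 clusters, and 13 classes had at least 20 cells in both libraries. The classes most used below were FAP-like cells (1088 in Ctrl and 1143 in dKO), monocyte and macrophage (MO/MP)-like cells (1181 and 955), endothelial (EC)-like cells (464 and 179) and T cell-like cells (118 and 137). A cluster of cells led by Fcna, Cd163 and Lyve1 had 13 enriched MO/MP markers and a Cd68, Csf1r and C1qa level of 5747 CPM in Ctrl, above 3899 CPM in MO/MP-like cells. It stayed unnamed because Lyve1, a listed lymphatic EC marker, was among its leading genes and no MO/MP marker was, and is called the Fcna-led cells (237 and 176). All 11 MuSC markers were enriched in the MuSC-like cluster, which held 117 cells in Ctrl and 30 in dKO. Yy1 had 369 UMIs there in Ctrl and 3 in dKO, a ratio of 0.0304 (0.00623 to 0.0894), against ratios of 0.676 to 1.26 in the other classes. The 2 cycling clusters, called cycling FAP-like and cycling MO/MP-like, were led by proliferation genes, with none of their own class's markers among the 10 leading genes, while 10 FAP and 15 MO/MP markers were enriched in them, in that order. The libraries shared 7 cell barcodes.

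Levels are given as CPM, the UMIs of a gene per 1000000 UMIs of all cells of that class in that library, and each ratio is dKO over Ctrl. Intervals in parentheses are exact 95% intervals for the counts, which cover counting error only and not the spread between mice. A gene was counted as higher or lower where it had at least 20 UMIs over both libraries and its ratio was past 1.5-fold, a rule of size and not a test. Levels were compared within a gene, between classes or libraries, and not between genes.

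All 9 genes are listed in the GRCm38 annotation. Irf7 lies on chromosome 7 at 141262706 to 141266481 on the minus strand, Irf1 on chromosome 11 at 53770014 to 53778374, and Irf9 on chromosome 14 at 55603571 to 55610030. Stat2, Ifng and Ifngr1 lie on chromosome 10, at 128270559 to 128292849, 118441046 to 118445892 and 19591949 to 19610229. The receptor genes Ifnar2 (91372783 to 91405589), Ifnar1 (91485238 to 91507441) and Ifngr2 (91547072 to 91565623) follow each other on chromosome 16. Irf9 overlaps Rnf31 on the same strand, and Irf7 overlaps Phrf1 on the opposite strand. How reads in these overlaps were counted was not examined.

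The promoters are shown because the targets of these pathways are defined by short response elements, and 4 of the 9 genes hold one upstream of the start. RefSeq windows (GRCm38.p6) from 250 bases before to 50 after each start were searched on both strands for the interferon-stimulated response element (ISRE) as GAAANNGAAA, which ISGF3 and IRF proteins bind, and for the gamma-activated site (GAS) as TTCNNNGAA, which carries the response to interferon gamma. Of 32851 windows, 3.44% held the ISRE letters and 8.30% the GAS letters. All 9 genes matched, with 11 windows. The ISRE letters were found in Stat2, and the GAS letters in Ifng, Ifnar2 and Irf1 upstream of the start and in Ifnar1 across it. Neither was found in the windows of Irf7, Irf9, Ifngr1 or Ifngr2. The sequences below run 5′ to 3′ along the gene, with the matching letters in capitals. They lie on the plus strand of GRCm38.p6, at chr10:128270248-128270315 for Stat2, where the match reads on the opposite strand, chr11:53769894-53769962 for Irf1, chr10:118440796-118440835 for Ifng and chr16:91372539-91372607 for Ifnar2.
Stat2: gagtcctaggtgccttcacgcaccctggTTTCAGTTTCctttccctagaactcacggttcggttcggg
Irf1: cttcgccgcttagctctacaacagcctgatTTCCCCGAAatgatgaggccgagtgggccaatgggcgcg
Ifng: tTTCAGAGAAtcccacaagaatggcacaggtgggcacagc
Ifnar2: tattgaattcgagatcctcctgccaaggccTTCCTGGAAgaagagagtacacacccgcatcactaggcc
The Stat2 match begins 222 bases before the start, that of Irf1 90 bases, that of Ifng 249 bases and that of Ifnar2 214 bases. Of the list of ISGF3 targets used below, 14 of 18 genes matched a window and 8 held the ISRE letters. Of the list of interferon gamma targets, 14 of 18 matched, of which 9 held the ISRE and 6 the GAS letters.

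Ifng, the ligand, was found almost entirely in T cell-like cells, in which it was detected in a small number of cells with very unequal counts. T cell-like cells held 171 of the 195 Ifng UMIs in Ctrl (87.7%, 82.2 to 92) and 136 of 144 in dKO (94.4%, 89.3 to 97.6). In them Ctrl had 421 CPM (360.0 to 489) and dKO 280.5 CPM (235 to 332), a ratio of 0.667 (0.528 to 0.84). Ifng lay at the very edge of the 1.5-fold limit and was the single one of the 9 genes counted as lower in this class, and none was counted as higher, where 9.33% of all 5007 genes were lower and 13.2% higher. With no doublets removed its log2 ratio was -0.55, inside that limit.

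These UMIs came from 20 of 118 T cell-like cells in Ctrl and 18 of 137 in dKO. The leading 3 cells held 50, 36 and 27 UMIs in Ctrl and 43, 32 and 11 in dKO, and the 5 leading cells held 78.4% and 77.9% of the class's Ifng UMIs. A small number of cells held most of the sum in both libraries. After thinning each cell to 2000 UMIs, the share of T cell-like cells with an Ifng UMI was 11.7% (5.99 to 20) in Ctrl and 9.82% (5.01 to 16.9) in dKO, with intervals that overlapped. Of these cells 24 in Ctrl and 25 in dKO were shallower than 2000 UMIs and were left out. In EC-like cells, which should lack the gene, no cell had a UMI, 0 of 464 in Ctrl and 0 of 179 in dKO, which allows up to 0.647% and 1.68% of cells with a UMI at this depth and sets no limit on cells that express the gene. The median depth was 4662 and 3802 UMIs in EC-like cells and 3218 and 3089 in T cell-like cells.

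The class was named from T cell markers but also held natural killer cell markers, and the Ifng UMIs were spread differently over its cells in the libraries. The surface markers in this paragraph were chosen after their values had been seen. In T cell-like cells with a Cd8a or Cd8b1 UMI and none of Cd4, Ifng had 19 UMIs in Ctrl and 97 in dKO, or 254 CPM (153 to 397) in 20 cells and 1088 CPM (882 to 1327) in 25 cells. The carriers were 7 of these 20 cells (35%, 15.4 to 59.2) and 10 of these 25 (40%, 21.1 to 61.3), shares with intervals that overlapped. In cells with no UMI of the T cell receptor genes Cd3d, Cd3e or Cd3g it had 117 UMIs in Ctrl and 13 in dKO, or 987 CPM (817 to 1183) in 32 cells and 131 CPM (69.8 to 224) in 26 cells. Here the carriers were 10 of 32 cells (31.2%, 16.1 to 50) and 3 of 26 (11.5%, 2.45 to 30.2), with intervals that overlapped. Of these, 13 Ctrl and 12 dKO cells also had a UMI of the natural killer genes Ncr1 or Klrb1c, and they held 70 and 2 Ifng UMIs. Cells without a Cd3 UMI thus held 68.4% of the class's Ifng UMIs in Ctrl and 9.56% in dKO, while cells with Cd8 held 11.1% and 71.3%. With the count limited to cells with a Cd3 UMI, the log2 ratio of Ifng was 0.77 in place of -0.58, and as the mean of each cell's CPM it was 0.017. The direction of Ifng in this class depended on which cells were summed. S100a8 and S100a9, neutrophil RNAs, went from 49.2 to 2.06 CPM in this class. The 9 measured natural killer markers went from 2551 to 2671 CPM, most of it Gzma, and the 10 proliferation markers from 266 to 563 CPM. MO/MP markers went from 613 to 837 CPM (ratio 1.37, 1.16 to 1.61) and FAP markers from 300 to 179 CPM (ratio 0.598, 0.449 to 0.793). The part of all these RNAs in the result was not tested.

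Among the natural killer markers Gzma stood at 1341 CPM in Ctrl and 1483 in dKO (ratio 1.11), while Ncr1 stood at 51.7 CPM in Ctrl and 16.5 in dKO (ratio 0.319, 0.122 to 0.75) and Klrb1c at 61.5 and 45.4 CPM (ratio 0.738, 0.396 to 1.36). Outside that list, Cxcr6 was 204 and 427 CPM (ratio 2.09) and Il2rb 197 and 309 CPM (ratio 1.57) in these cells. All 5 were named after their values were seen. Over all kept cells Ifng was 4.78 CPM in Ctrl and 4.74 CPM in dKO, a ratio of 0.991 (0.793 to 1.24). Outside the T cell-like class there were 24 UMIs in 8 Ctrl cells and 8 UMIs in 8 dKO cells, none in a cell with a Cd3 UMI. Of the 24 Ctrl UMIs, 18 lay in 2 cells of the cycling MO/MP-like cluster. MO/MP-like cells had 0 and 3 UMIs and FAP-like cells 3 and 4.

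Other interferon ligands were near the limit of detection. Of 20 listed genes, 3 had any UMI in the kept cells and the other 17 were at 0. Ifnb1, the interferon beta gene, had 17 UMIs in Ctrl and 19 in dKO. MO/MP-like cells held 12 and 9 of them, and the Fcna-led cells 5 and 2. Dendritic cell-like cells held none in Ctrl and 8 in dKO, all 8 in 1 cell. Ifnz had 6 and 2 UMIs and Ifnk 1 and 0. At this depth no difference between the libraries could be read from these counts.

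The 4 receptor chains were detected in all 13 classes with at least 20 UMIs, and their levels differed more between classes than between libraries. Ifngr1, the ligand-binding chain of the interferon gamma receptor, was highest in T cell-like cells, with 647 CPM (571 to 730.1) for Ctrl and 767 CPM (691 to 849) for dKO. Dendritic cell-like cells came next at 257 and 261 CPM, followed in Ctrl by EC-like cells at 227 CPM, whose interval overlapped that of dendritic cell-like cells. MuSC-like cells were lowest in Ctrl at 53.7 CPM (44.6 to 64.0) and stood at 56.6 CPM (39.4 to 78.7) in dKO.

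Between the libraries Ifngr1 was close to equal in the large classes. It had 2378 UMIs in Ctrl and 2226 in dKO in FAP-like cells, a ratio of 0.906 (0.855 to 0.961), and 1784 UMIs in Ctrl and 1208 in dKO in MO/MP-like cells, a ratio of 1.04 (0.969 to 1.12). In EC-like cells the ratio was 0.839 (0.703 to 0.998) and in T cell-like cells 1.19 (1.01 to 1.39). Smooth muscle-like cells stood apart, with 69 UMIs in Ctrl and 5 in dKO and a ratio of 0.257 (0.081 to 0.63), in 107 and 38 cells. All 8 pericyte markers were enriched in this cluster too, 2 of them among its leading genes. With no doublets removed a pericyte cluster of 47 and 18 cells was separate. The part of the makeup of this class in its values was not tested. Cycling MO/MP-like cells had a ratio of 1.47 (1.13 to 1.89) and the Fcna-led cells 0.74 (0.565 to 0.965). In the cycling MO/MP-like cluster the Cd3 genes went from 11.1 to 141 CPM and S100a8 and S100a9 from 17681 to 359 CPM, and their part in this and the other values of that cluster was not tested.

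Ifngr2, the signalling partner of Ifngr1, was highest in myeloid classes. In Ctrl the neutrophil-like, MO/MP-like, Fcna-led and dendritic cell-like cells stood between 105 and 143 CPM, with intervals that overlapped from each to the next. EC-like and MuSC-like cells were lowest at 29.4 and 26.4 CPM. Ifngr2 in MO/MP-like cells went from 123 CPM (117 to 129.8) to 161 CPM (152 to 170.2), a ratio of 1.31 (1.21 to 1.41), which was above 1 by its interval but inside the 1.5-fold limit. The ratio was 0.89 (0.803 to 0.985) in FAP-like cells and 1.36 (1.05 to 1.76) in dendritic cell-like cells. Across the MO/MP-like clusters it ran from 1.13 to 1.62.

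Ifnar1 and Ifnar2, the chains of the type I receptor, were also near 1 between the libraries. Ifnar1 had 592 UMIs in Ctrl and 540 in dKO in FAP-like cells, a ratio of 0.883 (0.784 to 0.994), and a ratio of 1.05 (0.954 to 1.15) in MO/MP-like cells. It was highest in dendritic cell-like cells in Ctrl at 122 CPM (102 to 144), above MO/MP-like cells at 94.1 CPM (88.7 to 99.7). Ifnar2 was highest in MO/MP-like cells, at 241 CPM in Ctrl and 274 in dKO, a ratio of 1.14 (1.08 to 1.21), and in Ctrl the interval overlapped that of the Fcna-led cells at 213 CPM. In FAP-like cells Ifnar2 went from 129.9 to 138 CPM, a ratio of 1.06 (0.997 to 1.13). Both chains were lowest in Ctrl in MuSC-like cells, at 25.5 and 50.6 CPM.

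Counted over the 13 classes, each receptor chain was past 1.5-fold higher in 1 class, and Ifngr1 was lower in 2. The higher classes were neutrophil-like cells for Ifngr1 (1.52, 0.845 to 2.64) and Ifnar1 (1.57, 0.702 to 3.26), and MuSC-like cells for Ifngr2 (1.77, 1.10 to 2.80) and Ifnar2 (1.53, 1.07 to 2.16). The lower ones for Ifngr1 were smooth muscle-like and B cell-like cells, the latter at 30 and 13 UMIs. In neutrophil-like cells 23.8% of 2511 genes were counted as higher and 16.3% as lower, and in MuSC-like cells 14.2% and 19.4% of 8916. In smooth muscle-like cells the shares were 11.7% and 21.8% and in B cell-like cells 13.8% and 12.7%. Many genes were past the limit in these small classes.

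**Figure D1:**
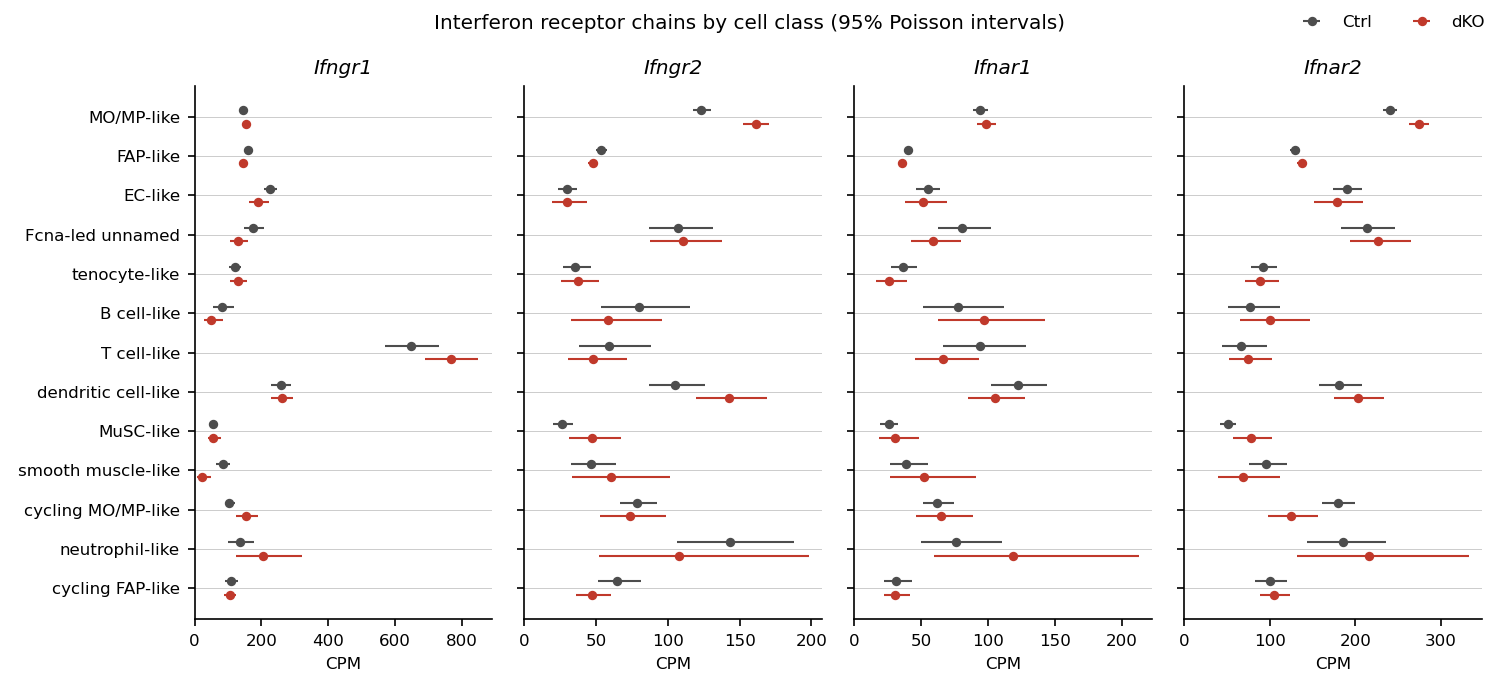
Levels of the receptor chains Ifngr1, Ifngr2, Ifnar1 and Ifnar2 in CPM (linear axis from 0) in each of 13 cell classes, with points for the Ctrl and dKO library and bars for exact 95% counting intervals. Ifngr1 was highest in T cell-like cells in both libraries, and in FAP-like and MO/MP-like cells the 4 chains stayed within 1.5-fold between the libraries, with Ifngr2 and Ifnar2 higher in dKO in MO/MP-like cells by intervals that lay apart.

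Irf7, the factor that amplifies type I interferon responses and is itself induced by ISGF3, showed the largest difference of the 9 genes in FAP-like and MO/MP-like cells. In FAP-like cells it had 471 UMIs in Ctrl and 1730 in dKO, or 31.8 CPM (29.0 to 34.8) and 113 CPM (108 to 119), a ratio of 3.56 (3.21 to 3.95). The MO/MP-like cells had 1182 UMIs in Ctrl and 2922 in dKO, or 96.9 CPM (91.5 to 103) and 369 CPM (356 to 383), a ratio of 3.81 (3.56 to 4.08). The intervals of the libraries were far apart in both classes. In EC-like cells, with a Ctrl level between those of the FAP-like and MO/MP-like cells, it went from 78.4 CPM (68.1 to 89.8) to 129.6 CPM (107 to 156), a ratio of 1.65 (1.3 to 2.09).

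More cells carried the gene in dKO. The share of FAP-like cells with an Irf7 UMI was 21.8% in Ctrl and 49.7% in dKO, and 6.05% (4.67 to 7.69) and 18.5% (16.3 to 21) after thinning to 2000 UMIs a cell. Shares in MO/MP-like cells were 35.6% and 71.8%, and 14.6% (12.6 to 16.8) and 44.3% (41.0 to 47.7) after thinning. Thinning left out 64 and 54 shallower FAP-like cells and 55 and 64 MO/MP-like cells in Ctrl and dKO. B cell-like cells, in which the gene was rare, had thinned shares of 3.09% (0.642 to 8.77) and 5.63% (1.56 to 13.8) at median depths of 2318 and 2556 UMIs. The median depths were 11856 and 11897 UMIs in FAP-like cells and 8859 and 7342 in MO/MP-like cells.

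The higher level was found in each cluster of these classes. Among the FAP-like clusters the Irf7 ratio was 4.34 (3.72 to 5.09) in the cells led by Inmt, 3.23 (2.72 to 3.85) in those led by Cxcl5 and 2.28 (1.81 to 2.89) in those led by Cxcl13. Among the 4 MO/MP-like clusters it ran from 3.42 to 4.45, with the Ly6c2-expressing cells led by Slpi at 4.32 (3.58 to 5.25). The Fcna-led cells stood at 3.39 (2.53 to 4.61). In EC-like cells the clusters led by Car4, Gkn3 and Selp had ratios of 1.58, 2.31 and 2.90.

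The order of the classes shifted with the library. In Ctrl, dendritic cell-like (105 CPM) and MO/MP-like cells (96.9 CPM) led without separate intervals, above EC-like and Fcna-led cells (78.4 and 72.3 CPM). In dKO, MO/MP-like cells led at 369 CPM, with an interval that overlapped that of the next class, before neutrophil-like (248 CPM, 23 UMIs), Fcna-led (245 CPM) and dendritic cell-like cells (190.5 CPM). FAP-like cells, at 31.8 CPM in Ctrl, reached 113 CPM and did not differ in dKO from EC-like cells at 129.6 CPM by their intervals. MuSC-like cells were lowest in Ctrl at 3.90 CPM (1.78 to 7.40).

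Over the 12 classes with at least 20 UMIs Irf7 was past 1.5-fold higher in 11, and in all 11 the interval lay above 1. The ratios were 2.17 (1.17 to 4.06) in tenocyte-like, 1.81 (1.43 to 2.31) in dendritic cell-like, 2.06 (1.16 to 3.57) in smooth muscle-like and 2.25 (1.53 to 3.29) in cycling MO/MP-like cells. They were 3.15 (2.04 to 5.02) in cycling FAP-like and 5.21 (2.66 to 10.4) in neutrophil-like cells. In neutrophil-like cells the macrophage RNAs Cd68, Csf1r and C1qa went from 253 to 648 CPM (ratio 2.56, 1.82 to 3.6) and S100a8 and S100a9 from 188645 to 102860 CPM, and their part in the result was not tested. T cell-like cells, the remaining class, had 9 UMIs in Ctrl and 15 in dKO and a ratio of 1.40 (0.573 to 3.62). The share of all genes counted as higher in these classes was 10.6% in the Fcna-led cells, 8.47% in tenocyte-like, 11% in dendritic cell-like, 14.9% in cycling MO/MP-like and 12.2% in cycling FAP-like cells. As lower, in the same order, the shares were 12.4%, 10.9%, 11.7%, 15% and 9.69%.

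**Figure D2:**
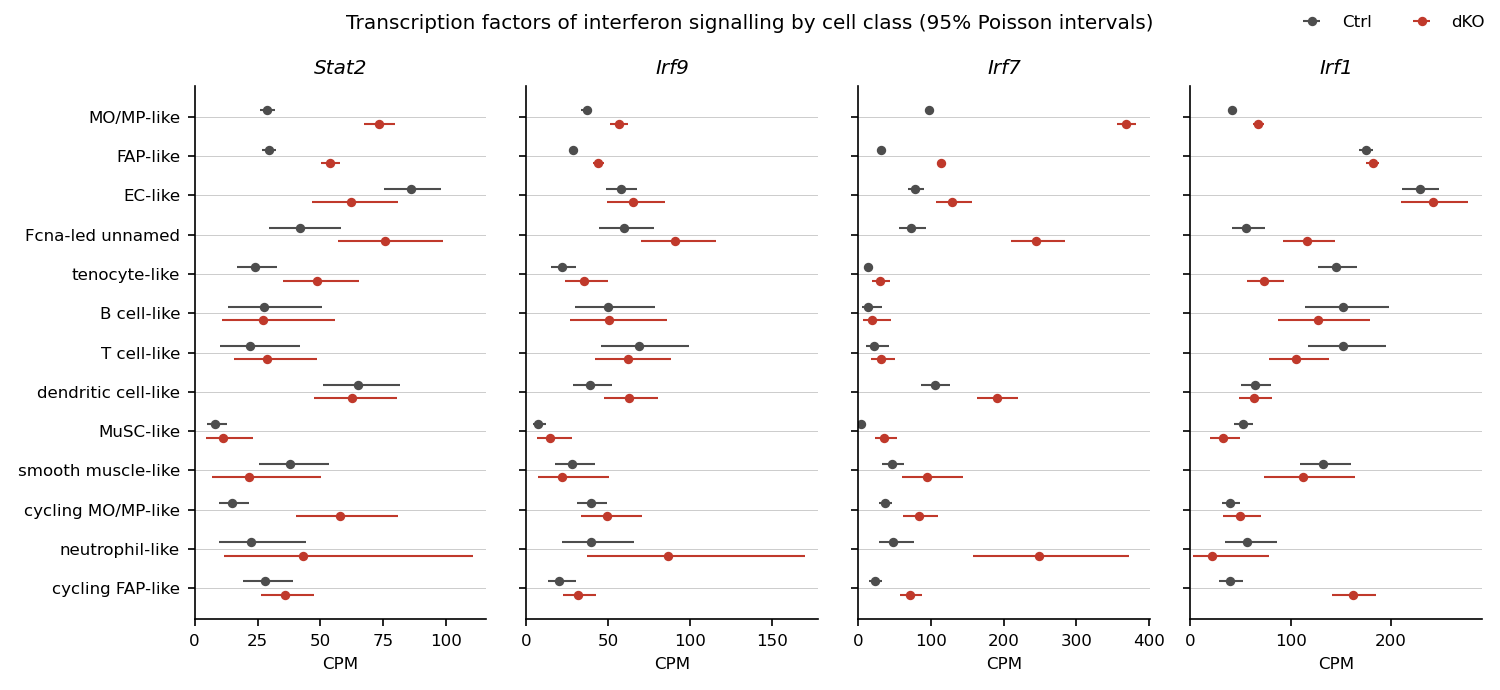
Levels of the transcription factor genes Stat2, Irf9, Irf7 and Irf1 in CPM (linear axis from 0) in each of 13 cell classes, with points for the Ctrl and dKO library and bars for exact 95% counting intervals. Irf7 was past 1.5-fold higher in dKO in 11 of the 12 classes with at least 20 UMIs, while Irf1 nearly coincided in FAP-like and EC-like cells.

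MuSC-like cells, in which Yy1 was deleted, showed the largest Irf7 ratio on small counts. Irf7 had 9 UMIs in Ctrl and 22 in dKO, a ratio of 9.13 (4.04 to 22.5), but 12 of the 22 dKO UMIs came from 1 cell of 51027 UMIs, which had 125 UMIs of MuSC markers and none of neutrophil markers. Without the cell with most Irf7 UMIs in each library, 7 and 10 UMIs remained, a ratio of 5.80 (1.99 to 17.9). The summed ISGF3 targets in this class went from 139 to 774 CPM, and from 130.2 to 620 CPM without those cells, so their ratio of 5.57 (4.83 to 6.44) was not held by that cell alone. Myocyte markers went from 2652 to 4487 CPM in the class, proliferation markers from 1069 to 695 CPM and FAP markers from 929 to 461 CPM. Neutrophil markers went from 38.1 to 106.6 CPM in the class, macrophage markers from 147 to 59.8 CPM and erythroid markers from 0.866 to 113 CPM, the latter in 1 dKO cell, and their part in the result was not tested. Of the 8 genes with enough UMIs here, 4 were counted as higher and 1, Irf1, as lower, beside 14.2% and 19.4% of all genes. Of the 4, Irf9 had 17 and 9 UMIs and an interval that included 1 (1.98, 0.776 to 4.69).

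Stat2 and Irf9, subunits of ISGF3, were both higher in FAP-like and MO/MP-like cells. Stat2 had 437 UMIs in Ctrl and 822 in dKO in FAP-like cells, or 29.5 CPM (26.8 to 32.4) and 53.8 CPM (50.2 to 57.6), a ratio of 1.82 (1.62 to 2.05). In MO/MP-like cells it had 352 UMIs in Ctrl and 580 in dKO, or 28.9 CPM (25.9 to 32.0) and 73.3 CPM (67.4 to 79.5), a ratio of 2.54 (2.22 to 2.91). EC-like cells had the highest level in Ctrl, 85.9 CPM (75.1 to 97.8), and a lower one in dKO, 62.0 CPM (46.5 to 80.8), a ratio of 0.721 (0.526 to 0.974) that stayed inside the 1.5-fold limit. The EC-like cells led by Gkn3, with Gja5, Bmx and Sema3g among its leading genes, had the lowest Stat2 ratio, 0.358 (0.122 to 0.878), on 29 and 6 UMIs.

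Irf9, the DNA-binding subunit, went from 28.4 CPM (25.7 to 31.2) to 44.0 CPM (40.7 to 47.4) in FAP-like cells, a ratio of 1.55 (1.37 to 1.75). It went in MO/MP-like cells from 36.8 CPM (33.5 to 40.4) to 56.5 CPM (51.4 to 62.0), a ratio of 1.53 (1.34 to 1.75), and in EC-like cells the ratio was 1.13 (0.821 to 1.55). Both calls lay just past the 1.5-fold limit. Rnf31, which overlaps Irf9 on the same strand, had ratios of 1.09 (0.82 to 1.45) and 1.27 (0.982 to 1.64) in FAP-like and MO/MP-like cells, and Phrf1, opposite Irf7, 1.18 (1.01 to 1.39) and 1.23 (1.01 to 1.49).

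Outside these classes Stat2 was counted as higher in cycling MO/MP-like (3.90, 2.30 to 6.68), tenocyte-like (2.04, 1.28 to 3.25) and Fcna-led cells (1.80, 1.16 to 2.83), which made 5 of 11 classes. It was counted as lower in smooth muscle-like cells, on 31 and 5 UMIs. Dendritic cell-like cells, second highest for Stat2 in Ctrl, had a ratio of 0.961 (0.67 to 1.37). Irf9 was counted as higher in 8 of 13 classes and as lower in none, with intervals above 1 in 4: FAP-like, MO/MP-like, Fcna-led (1.53, 1.05 to 2.26) and dendritic cell-like cells (1.59, 1.06 to 2.41).

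Irf1, a factor induced by interferon gamma, differed less between the libraries than Irf7 did in the large classes. In FAP-like cells it had 2590 UMIs in Ctrl and 2776 in dKO, or 175 CPM (168 to 182) and 182 CPM (175 to 189), a ratio of 1.04 (0.983 to 1.10). In EC-like cells, where it was highest, it went from 229 to 242 CPM, a ratio of 1.06 (0.899 to 1.24). MO/MP-like cells started low and were higher in dKO, from 41.8 CPM (38.3 to 45.6) to 67.9 CPM (62.2 to 73.8), a ratio of 1.62 (1.43 to 1.84). The immediate early genes Fos, Jun, Egr1 and Atf3 summed to 1912 CPM in Ctrl and 2407 CPM in dKO there, and to 3524 and 4172 CPM in the Fcna-led cells, and their part in the result was not tested.

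Other classes differed in both directions. Irf1 was higher in the Fcna-led cells, from 56.0 to 116 CPM or a ratio of 2.08 (1.44 to 3.03), and in cycling FAP-like cells, from 39.6 to 162 CPM or a ratio of 4.09 (2.97 to 5.73). With clusters made at resolution 0.4 the log2 ratio of the cycling FAP-like cells was 0.72, and with the pathway genes left out of the variable genes 0.74, against 2.03. It was lower in tenocyte-like cells, with 226 UMIs in Ctrl and 65 in dKO or a ratio of 0.504 (0.376 to 0.667), and in MuSC-like cells, with 121 UMIs in Ctrl and 20 in dKO or a ratio of 0.617 (0.364 to 0.996). The third class counted as lower was neutrophil-like cells, on 20 and 2 UMIs. In the cycling FAP-like class, of 36 and 37 cells, the immediate early genes Fos, Jun, Egr1 and Atf3 summed to 2584 CPM in Ctrl and 3739 CPM in dKO, and their part in the result was not tested. In tenocyte-like cells the same 4 genes went from 10149.9 to 8589 CPM. By ratio, they went the opposite way to Irf1 in neutrophil-like (1695 to 2343 CPM), cycling MO/MP-like (1484 to 955 CPM) and T cell-like cells (1277 to 1378 CPM). The same held in FAP-like (8514 to 7686 CPM) and EC-like cells (6440 to 6054 CPM), in which Irf1 was near 1. They went the same way as Irf1 in B cell-like, dendritic cell-like, MuSC-like and smooth muscle-like cells.

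Within MO/MP-like cells the Irf1 ratio ran from 1.2 (0.909 to 1.59) in the cells led by Slpi to 2.74 (1.74 to 4.43) in those led by Ear2. In the EC-like cells led by Car4 and Gpihbp1 it was 1.56 (1.26 to 1.93), while in those led by Selp it was 0.693 (0.503 to 0.941). The near equal Irf1 level of EC-like cells as a whole was thus a sum of clusters on either side of 1. The FAP-like clusters lay between 0.937 and 1.14.

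**Figure D3:**
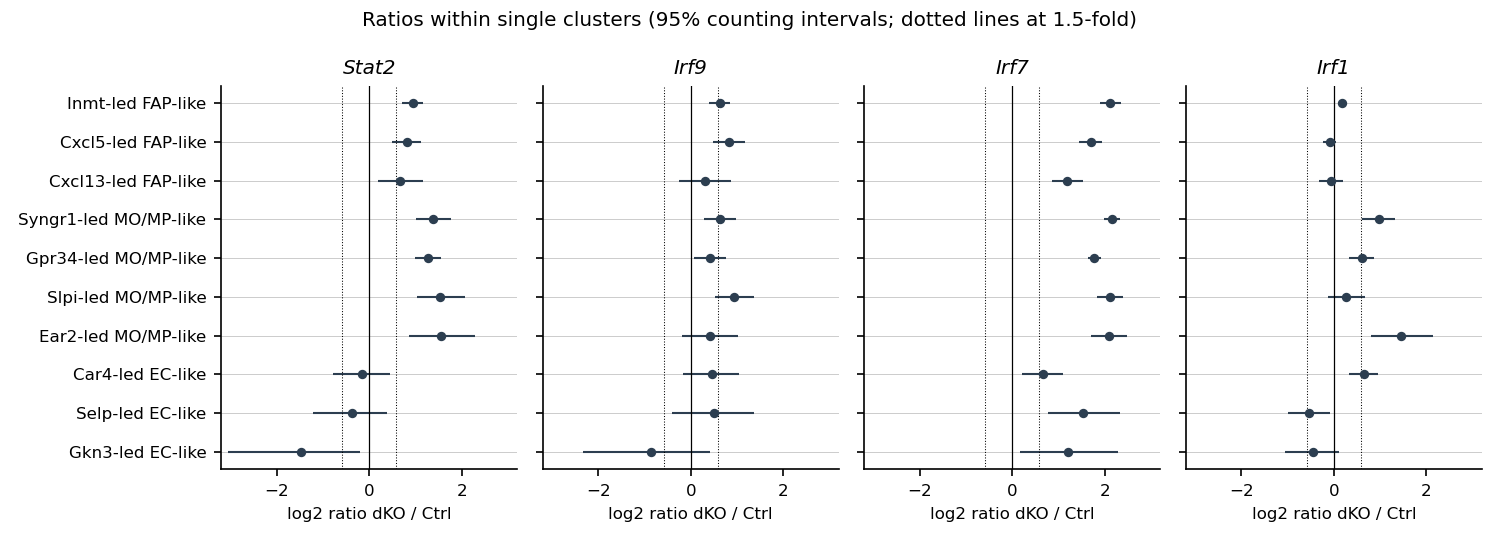
Log2 ratios of dKO over Ctrl of Stat2, Irf9, Irf7 and Irf1 in the clusters of the FAP-like, MO/MP-like and EC-like classes, with bars for exact 95% counting intervals. Irf7 lay above a ratio of 1 in each cluster, between ratios of 1.58 and 4.45, while Irf1, Stat2 and Irf9 had ratios on both sides of 1 among these clusters.

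In FAP-like cells 3 of the 8 genes with at least 20 UMIs were counted as higher (Irf7, Stat2 and Irf9) and 0 as lower, where 4.41% of 12575 genes were higher and 6.43% lower. In MO/MP-like cells 4 of 8 were higher (Irf7, Stat2, Irf1 and Irf9) and 0 lower, where 6.49% of 11051 genes were higher and 6.93% lower. With no doublets removed Irf9 in FAP-like cells came to 1.49 and was no longer counted, and as the mean of each cell's CPM Irf1 in MO/MP-like cells came to 1.48 and was not counted either. In EC-like cells 1 of 8, Irf7, was higher and 0 lower, where 7.85% of 9063 genes were higher and 16% lower. The median log2 ratio of the 8 genes was 0.07 in FAP-like, 0.50 in MO/MP-like and -0.03 in EC-like cells, beside -0.0627, -0.00864 and -0.0721 over all genes counted. The genes called in FAP-like and MO/MP-like cells were transcription factors, and no receptor chain was past the limit in either class.

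Some RNAs of other cells moved with the libraries in these classes. S100a8 and S100a9 went from 29.2 to 3.53 CPM in FAP-like cells and from 143 to 48.1 CPM in MO/MP-like cells, and the 12 neutrophil markers from 42.5 to 8.25 CPM and from 224 to 114 CPM. S100a8 and S100a9 also went from 30.5 to 4.59 CPM in EC-like cells and from 71.2 to 4.21 CPM in the Fcna-led cells. These RNAs were higher in Ctrl, the library with the lower Irf7, and their part in the result was not tested. Other lists were higher in dKO. The natural killer markers went from 5.66 to 13.3 CPM (ratio 2.35, 1.71 to 3.23) in MO/MP-like cells, where the MuSC markers had a ratio of 1.34 and the Schwann markers 1.3. Erythroid markers in FAP-like cells went from 6 to 44 UMIs, the latter in 2 cells. The part of these RNAs was not tested either. The 15 MO/MP markers themselves summed to 17061 CPM in Ctrl and 17500 CPM in dKO in MO/MP-like cells, and the 10 FAP markers to 43867 and 39710 CPM in FAP-like cells.

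**Figure D4:**
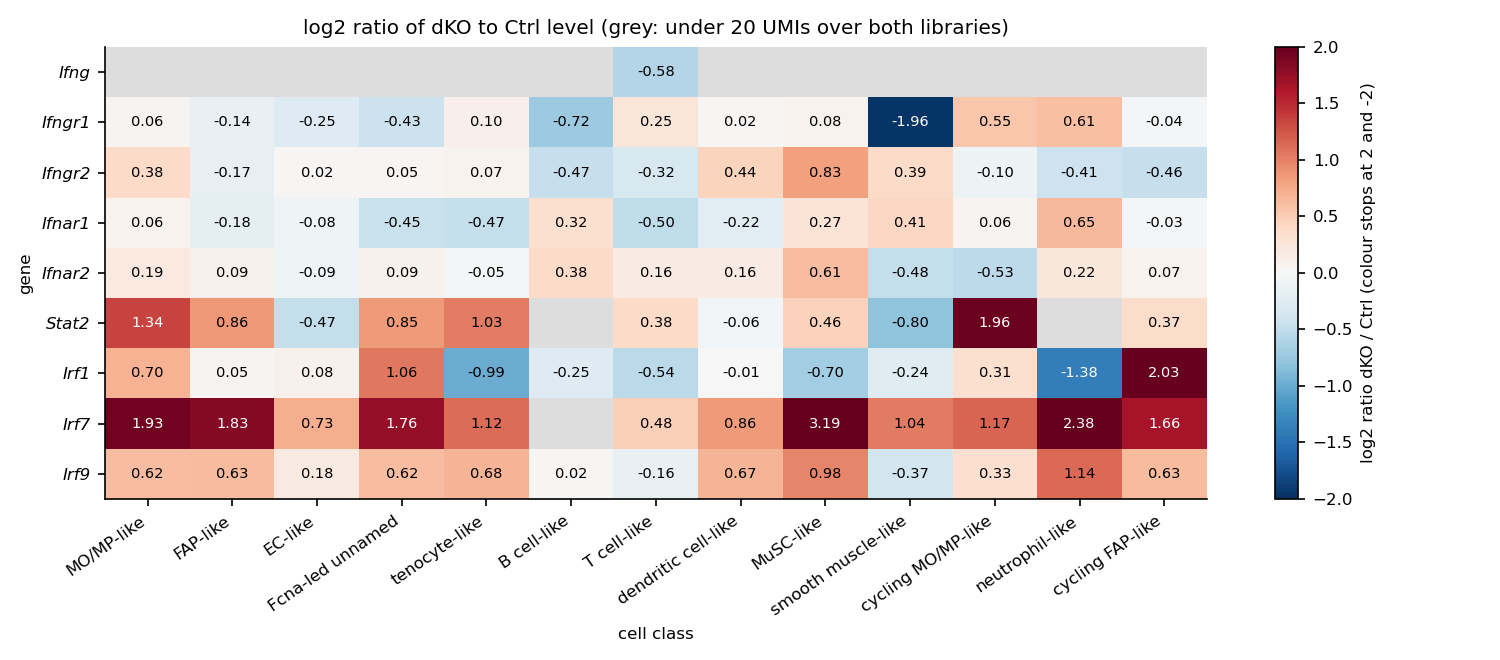
Log2 ratio of dKO over Ctrl of each member gene in each of 13 cell classes, shown as colour, with grey where a gene had under 20 UMIs. The row of Irf7 is on the higher side in all 12 classes shown, from a log2 ratio of 0.48 in T cell-like to 3.19 in MuSC-like cells, while the receptor rows lie mostly near 0.

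The other genes of the pathway were taken from 8 lists. ISGF3 targets, antiviral genes such as Ifit1, Isg15, Mx1 and Oas2, were higher in dKO in 18 of 18 genes in FAP-like cells, with a median log2 ratio of 1.54, and in 17 of 18 in MO/MP-like cells, with a median of 1.24. In EC-like cells 4 of 16 were higher and 1 lower, with a median of 0.23. The extremes in FAP-like cells were Mx1, a GTPase that blocks viruses, at 1.69 to 8.57 CPM, a ratio of 5.07, and Ifit3 at 23.7 to 95.2 CPM, a ratio of 4.02. In MO/MP-like cells Ifi44 went from 9.26 to 45.9 CPM, a ratio of 4.95.

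Targets of interferon gamma, such as guanylate-binding proteins, immunity-related GTPases and immunoproteasome subunits, were higher in 15 of 17 genes in FAP-like cells (median log2 ratio 0.93), in 14 of 18 in MO/MP-like cells (0.94) and in 5 of 17 in EC-like cells (0.40). None was lower in these classes. Cxcl9, a chemokine that attracts T cells, had the largest MO/MP-like ratio, at 6.07 to 56.0 CPM, a ratio of 9.23, and Gbp4 went from 2.95 to 11.0 CPM, a ratio of 3.72. In FAP-like cells Tgtp2 went from 0.338 to 1.64 CPM, a ratio of 4.84, on 5 and 25 UMIs. In T cell-like cells, the source of most Ifng, 0 of 13 of these targets were higher and 3 lower, with a median of -0.07, and ISGF3 targets were higher in 1 of 4. Of all genes in that class, 13.2% were higher and 9.33% lower.

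Each target list was also summed over its genes. The ISGF3 targets summed to 527 to 1341 CPM, ratio 2.55 (2.48 to 2.61), in FAP-like cells, to 1308 to 2835 CPM, ratio 2.17 (2.12 to 2.21), in MO/MP-like cells and to 1802 to 2018 CPM, ratio 1.12 (1.06 to 1.18), in EC-like cells. The Fcna-led cells had the highest sum in dKO, 4898 CPM, from 1957 CPM in Ctrl. B cell-like cells, with 5 Irf7 UMIs in each library, also had a higher sum, 138 to 325 CPM, ratio 2.35 (1.64 to 3.41). The interferon gamma targets summed to 631 to 1147 CPM, ratio 1.82 (1.77 to 1.86), in FAP-like cells and to 2059 to 3007 CPM, ratio 1.46 (1.39 to 1.53), in EC-like cells, in which Irf1 was near 1. Where Irf1 was lower they summed to 99.6 to 383 CPM, ratio 3.85 (3.19 to 4.63), in MuSC-like cells, to 323 to 562 CPM, ratio 1.74 (1.23 to 2.43), in neutrophil-like cells and in tenocyte-like cells to 313 to 311 CPM, ratio 0.995 (0.855 to 1.16).

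**Figure D5:**
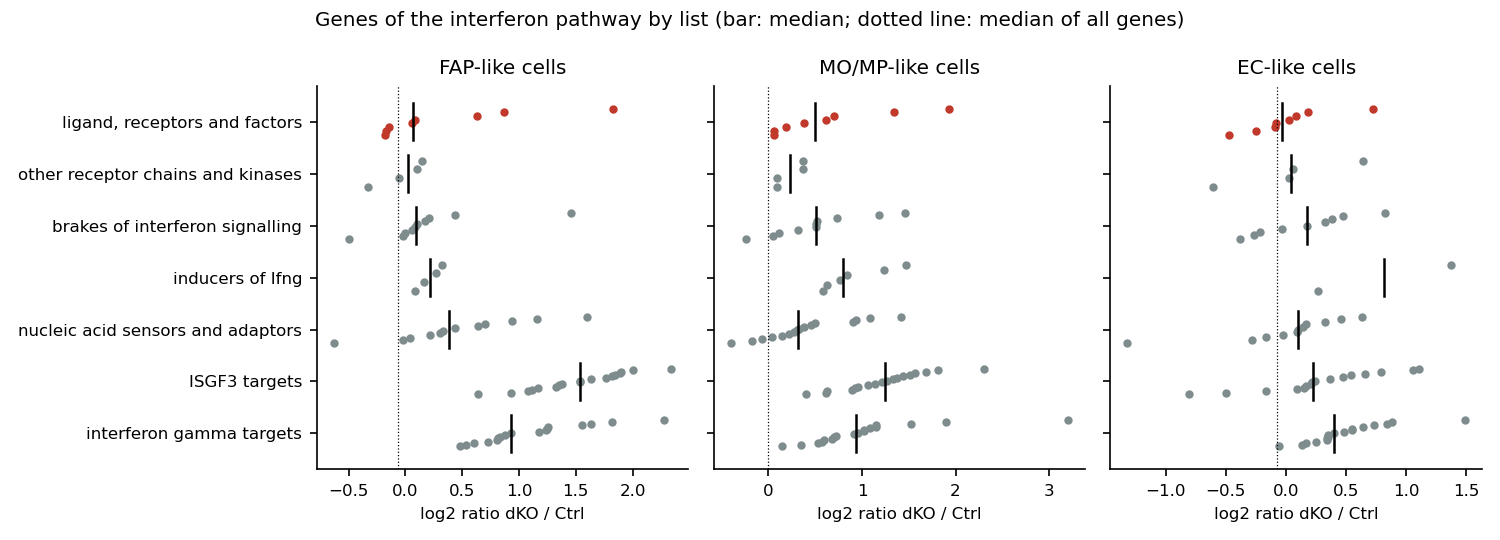
Log2 ratios of dKO over Ctrl of the member genes and of the genes of the lists described here, with at least 20 UMIs in FAP-like, MO/MP-like and EC-like cells, with 1 point per gene, a bar at the list's median and a dotted line at the median of all genes. The ISGF3 targets and the interferon gamma targets lie above a log2 ratio of 0 in FAP-like and MO/MP-like cells, while the other receptor chains and kinases lie within 1.5-fold in both.

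Upstream genes differed less. Of other receptor chains and kinases, 0 of 4 were past the limit in FAP-like or MO/MP-like cells, and Tyk2, the kinase bound to Ifnar1, was lowest in FAP-like cells at 7.17 to 5.69 CPM, a ratio of 0.795. Among the other factors, Irf3, which is held ready in the cytoplasm and not induced, had ratios of 0.877 and 0.887. Nucleic acid sensors and adaptors were higher in 5 of 12 genes and lower in 1 in FAP-like cells, and higher in 4 of 16 in MO/MP-like cells. Zbp1, an interferon-induced sensor, had ratios of 3.04 and 2.67, while Mavs, the mitochondrial adaptor, went from 9.53 to 6.15 CPM, a ratio of 0.645, in FAP-like cells. The same gene went from 12.4 to 9.35 CPM, a ratio of 0.755, in the MO/MP-like class. Zbp1 was named after its values were seen.

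Brakes of the pathway were higher in 1 of 10 genes in FAP-like cells, which was Usp18 at 10.6 to 29.2 CPM, a ratio of 2.75, and in 3 of 10 in MO/MP-like cells, Usp18, Socs3 and Socs1. Usp18 is itself an interferon-induced gene that binds Ifnar2 and dampens its signal. At the low end stood the phosphatases Ptpn6 in FAP-like cells, on 15 and 11 UMIs, and Ptpn11 in MO/MP-like cells, at 42.2 to 35.6 CPM, a ratio of 0.844. Cytokines and receptors that induce Ifng were higher in 0 of 4 genes in FAP-like cells, 5 of 6 in MO/MP-like cells and 4 of 4 in dendritic cell-like cells. Of all genes, 4.41%, 6.49% and 11% were higher in these classes, in that order. The median log2 ratio of the list was 1.91 in dendritic cell-like cells. There Il12b, the p40 subunit of interleukin 12, went from 46 to 220 UMIs, or from 40.9 to 233 CPM, a ratio of 5.69. S100a8 and S100a9 went from 142 to 305 CPM and the Cd3 genes from 10.7 to 1.06 CPM in dendritic cell-like cells, and their part in the result was not tested. In MO/MP-like cells the 5 were Il27 (2.77, on 10 and 18 UMIs), Il15ra (2.35), Ebi3 (1.79), Il18rap (1.70) and Il15 (1.55), while Il18 stood just inside the limit at a log2 ratio of 0.58. In T cell-like cells 0 of 4 were past the limit, where 13.2% of all genes were higher and 9.33% lower. These genes too were named after their values were seen.

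Within a library, cells with an Irf7 UMI held more ISGF3 target UMIs than cells without one. In FAP-like cells thinned to 2000 UMIs the mean was 2.76 ± 3.47 (SD over 62 cells) with and 0.939 ± 1.51 (962 cells) without in Ctrl, and 4.95 ± 7.20 (202 cells) and 2.07 ± 2.84 (887 cells) in dKO. For MO/MP-like cells the means were 6.87 and 2.25 in Ctrl and 8.29 and 4.22 in dKO. After thinning, the dKO cells without an Irf7 UMI had more target UMIs than the Ctrl cells without one in both classes. Some of these cells carried an Irf7 UMI before thinning, a larger part of them in dKO than in Ctrl. The comparison is therefore not one of cells that lack Irf7. For Irf1 in FAP-like cells the ISGF3 target means were 0.967 with and 1.07 without in Ctrl, and 2.65 and 2.59 in dKO, while in MO/MP-like cells they were 8.38 ± 24.9 (96 cells) and 2.41 ± 4.31 (1030 cells) in Ctrl, and 9.54 and 5.60 in dKO. Interferon gamma targets were also more in cells with Irf1, at 1.41 with and 1.14 without in Ctrl and 3.35 and 1.87 in dKO for FAP-like cells, and at 3.63 and 1.26 in Ctrl and 4.10 and 2.19 in dKO for MO/MP-like cells. The same targets were more in cells with Irf7 too, at 2.16 and 1.13 in Ctrl and 4.13 and 1.71 in dKO for FAP-like cells, and at 2.84 and 1.22 in Ctrl and 3.08 and 1.85 in dKO for MO/MP-like cells. Cells are not replicates, and these means describe the 2 libraries.

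Over the whole libraries Irf7 was 55.0 CPM in Ctrl and 177 CPM in dKO, a ratio of 3.23 (3.07 to 3.39), Stat2 1.78 (1.65 to 1.91), Irf9 1.45 (1.34 to 1.56) and Irf1 1.19 (1.14 to 1.24). FAP-like cells held 36.3% of all UMIs in Ctrl and 50.3% in dKO, so a whole library value mixes levels with the makeup of the cells. With the class levels of dKO weighted by the makeup of Ctrl, the ratios were 3.35 for Irf7, 1.76 for Stat2, 1.45 for Irf9 and 1.08 for Irf1. The receptors stood between 0.976 and 1.14 on that scale, and Ifng at 0.647.

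The genes most like each member were found by Pearson's r of log2(CPM + 10) over 26 values, 13 classes in each library, among 11443 genes. These points share libraries and depth, and the values are a description. For Irf7 the closest were Trafd1 (r = 0.89), Oasl2 (0.89), Isg15 (0.87), Rtp4 (0.84) and Usp18 (0.84), of which Oasl2, Isg15 and Rtp4 are on the list of ISGF3 targets. For Stat2 they were Casp4 (0.78), Herc6, Trim30a, Rnf213 and Irf7 (0.73), and for Irf9 the class I histocompatibility genes H2-D1 (0.93), B2m (0.91) and H2-K1 (0.86), with Trim12c and Trim30a. Irf1 had other neighbours, Dop1a (0.83), Phxr4, Pxdc1, Tsc22d2 and Zbtb4 (0.79).

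Ifngr2 was closest to Pirb (0.90), Cd300a, Spi1 and Wfdc17 (0.88), and Ifnar1 to Hcls1 (0.91), Lrrc8d, Bcl2a1b, Lcp1 and Inpp5d (0.89). Ifnar2 was closest to Plekho2 (0.90), Gda, Slc31a2, Sdcbp and Acer3 (0.87), and Ifngr1 to Elf4 (0.79), Cd47, Tnfrsf18 and Bcl11b (0.73). Ifng was closest to Cxcr6 (0.97), Gzma, Il2rb and Skap1 (0.95). Among the members the highest r were Ifnar2 with Irf7 (0.78), Ifngr2 with Ifnar1 (0.73) and Stat2 with Irf7 (0.73), and the lowest was Ifngr2 with Irf1 (-0.50).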

How the data were processed

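Single-cell RNA was measured in 1 Ctrl and 1 dKO library of sorted live cells from hind limb muscle. The authors deposited counts, as gene-by-cell matrices of UMIs from Cell Ranger. The submitters' processing notes name Cell Ranger 7.0.0, Seurat 4.3.0 and the build mm10, while the matrix headers name software version 3.0.2. The matrices hold 4527 and 3483 barcodes. The study states 2 minimums, 200 genes and 1000 UMIs, which leaves 4295 and 3306, and 500 genes, which leaves 4335 and 3329.

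The study's minimum of 500 genes was used here. Mitochondrial genes are not among the listed genes, so no filter on their share was used. The threshold that Scrublet (scanpy 1.11.5) set by itself called 4 and 14 doublets, which is too few, and the 7.5% of cells with the highest score were removed instead (325 and 250). The libraries were integrated by anchors in Seurat 5.3.0 (R 4.3.3) with 2000 variable genes and 40 dimensions and clustered at resolution 0.8. For names, 18 marker lists with 173 genes were used, of which 170 are in the matrices, so class names are rebuilt and may differ from those of the study.

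UMIs were summed per class and library. Ratios have exact 95% binomial intervals and levels exact Poisson intervals (scipy 1.17.1, numpy 2.4.6), and zero counts are bounded by 3 UMIs or cells. Shares of cells were also taken after thinning to 2000 UMIs. With 1 library per group no p-value was computed, and differences between pools of mice, preparation and genotype cannot be told apart. Genes with at least 20 UMIs and a ratio past 1.5-fold were counted. The named genes were the 9 members in each class, the genes with the highest and lowest ratios of the 8 pathway lists in FAP-like and MO/MP-like cells, and the genes most like each member among those with at least 200 UMIs. Others are marked where named, and some genes that the rule would name are not reported here. The ratio calculation was tested on simulated data. The members and all lists were chosen with earlier results of these data known. The alternatives concerned doublets, cell filters, integration, clustering, scaling, averaging and minimum counts.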

Additional observations from a re-analysis of the deposited data

Results flagged for a closer look

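The ratio of Irf1 lay on opposite sides of 1 in different classes of the same libraries. It was 1.62 in MO/MP-like cells, 2.08 in the Fcna-led cells and 4.09 in cycling FAP-like cells, but 0.504 in tenocyte-like cells and 0.617 in MuSC-like cells. The difference between classes was not tested, since each condition is 1 library. The value in cycling FAP-like cells ran from 1.65 to 4.58 over the processing alternatives.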

How the results depend on the processing

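Of 235 values of 28 results under an alternative, 227 stayed within the counting interval or within 1.5 times the count of the reported value. As the mean of each cell's CPM, the log2 ratio of Irf1 in FAP-like cells was 0.21 in place of 0.05 and that of Irf7 in MO/MP-like cells 1.78 in place of 1.93. For Ifng in T cell-like cells the log2 ratio, reported as -0.58, was 0.017 as the mean of each cell's CPM, -0.013 over all cells of the library and 0.77 in cells with a Cd3d, Cd3e or Cd3g UMI, the last chosen after seeing the data. Over the alternatives the ratio of Irf7 ran from 3.49 to 3.74 in FAP-like cells, from 3.43 to 3.88 in MO/MP-like cells and from 1.64 to 2.06 in EC-like cells, and that of Stat2 from 1.76 to 1.98 in FAP-like and from 2.32 to 2.60 in MO/MP-like cells. Irf9 in FAP-like cells came to 1.49 with no doublets removed, which left 2 of the 3 genes counted as higher there, and to a log2 ratio of 0.82, against 0.63, as the mean of each cell's CPM. Irf1 in MO/MP-like cells came to 1.48 as the mean of each cell's CPM, which left 3 of the 4 genes counted there. With no UMI minimum 5 genes were counted in MO/MP-like cells, and with the Fcna-led and cycling MO/MP-like clusters added, a choice made after seeing the data, 4 were higher and 1 lower. Irf1 in cycling FAP-like cells had a log2 ratio of 0.72 at resolution 0.4 and 0.74 with the pathway genes left out of the variable genes, against 2.03. The causes of these shifts were not tested. No paired analysis was possible because each group has 1 library, and no replicate could be left out. Depth limited Ifng outside T cell-like cells, the other interferon ligands, and the members in MuSC-like, B cell-like and neutrophil-like cells.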
